A study of Mus musculus with 19 samples.

Results

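The 6 genes described here, Col2a1, Col9a1, Col9a2, Col9a3, Col11a1 and Col11a2, encode the chains of collagens II, IX and XI, which together make the fibrils of cartilage. They were taken by name as every gene annotated to those chains on a mouse whole-genome array, and they make up 6 of the 18193 genes measured. Their 10 probe sets were read on all 19 arrays. The arrays came from sorted skeletal progenitor populations of the mouse: 18 arrays of 6 populations from limbs at postnatal day 3, with 3 arrays each, and 1 adult array.

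Every neonatal population was sorted from the limbs, front and rear, of pups recorded as wild type, which the protocol also describes as labelled with GFP, as cells negative for CD45, Ter119 and Tie2 and positive for integrin AlphaV. These cells were then divided by Thy, by 6C3 (the aminopeptidase encoded by Enpep) and by CD105 (endoglin, encoded by Eng). Cells of the types Thy-6C3-, Thy+6C3- and Thy-6C3+ were each taken as a CD105- and a CD105+ population, which gives the 6 populations. Animals of a litter were pooled, and no label says that the 3 arrays of a population came from separate litters, so the p-values measure the spread between these samples only, which may be technical. RNA was amplified in 2 rounds before hybridisation. The adult array is titled Thy+6C3+CD105+; its source is given as sternum and ear in one field and as limbs in another, and it entered no test.

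Cartilage collagen fibrils are built around collagen II, a homotrimer of the Col2a1 product. Collagen XI, made of the Col11a1 and Col11a2 products and a further chain that derives from Col2a1, lies within the fibril and limits its width. Collagen IX, a heterotrimer of the Col9a1, Col9a2 and Col9a3 products, lies on the fibril surface, where it is cross-linked to collagen II and reaches out to other matrix proteins. The genes are classic targets of the transcription factors Sox9, Sox5 and Sox6 in chondrocytes, and Col11a1 is also expressed in other connective tissues.

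The labels were compared with the array before the collagen genes were examined. Thy1 ranged from 9.99 to 10.47 on the log2 scale on the 6 Thy+6C3- arrays and from 4.96 to 5.95 on the 12 Thy- arrays. Enpep ranged from 10.69 to 11.24 on the 6C3+ arrays and from 6.20 to 8.83 on the other neonatal arrays. Eng overlapped between CD105 states, from 8.17 to 8.83 on neonatal CD105+ arrays and from 6.65 to 8.58 on CD105- arrays. The overlap came from Thy+6C3-CD105- replicate 3 alone, at 8.58. All other CD105- arrays read 6.65 to 7.82, below every neonatal CD105+ array. Of the antigens sorted against, Tie2 is encoded by Tek and CD45 by Ptprc. Tek was higher in Thy+6C3- than in Thy-6C3- cells, by 1.11 with CD105 and 1.51 without (limma, adjusted p = 0.000349 and 1.45e-05). Every neonatal Thy+ array read above every Thy- array for Tek. Ptprc was called in neither comparison (-0.45 and 0.53). Whether Tie2+ cells remained in the Thy+ populations was not tested. Replicates 2 and 3 of Thy-6C3+CD105- carry titles that name Thy+ while their other labels say Thy-; their Thy1 levels lay with the Thy- arrays, between 5.71 and 5.95. Thy+6C3-CD105- replicate 3 and Thy-6C3+CD105- replicate 2 stood apart in array median before normalization, at 5.91 and 6.02 against 5.60 to 5.75 for the other neonatal arrays, and results that rest on them are given with and without them. On the adult array, Thy1 was at 8.77 and Enpep at 8.43, the latter within the range of the 6C3- arrays.

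Collagen II was highest in the Thy-6C3- populations, slightly lower in the 6C3+ populations and far lower in the Thy+ populations. Col2a1 read 13.95, 14.11 and 14.27 on the Thy-6C3-CD105- arrays, and 14.11, 14.05 and 14.06 on the Thy-6C3-CD105+ arrays. On the Thy-6C3+ arrays it read 13.63, 13.48 and 13.53 with CD105 and 13.47, 13.26 and 13.48 without. The 6C3+ arrays therefore lay below every Thy-6C3- array, by less than 1 log2 unit in the mean. On the Thy+6C3- arrays Col2a1 read 11.16, 11.69 and 11.17 with CD105 and 10.86, 10.99 and 11.81 without, so that no Thy+ array came within the range of any other population, while the Thy+ populations overlapped each other. In the Thy-6C3- arrays Col2a1 was 0.14 to 0.47 below the brightest probe set on the array, and 2 to 11 probe sets were brighter, so its level there was close to the upper end of what the array reports. Whether this narrowed the differences between Thy-6C3- and 6C3+ cells was not tested.

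Collagen IX followed the same order. On the probe sets used for the genes, Col9a2 and Col9a3 stepped down both from Thy-6C3- to 6C3+ cells and from 6C3+ to Thy+ cells. Col9a2 read 11.02, 11.82 and 11.45 on the Thy-6C3- arrays without CD105, and 11.08, 11.50 and 11.21 on those with it. On the Thy-6C3+ arrays it read 8.26, 8.76 and 8.30 without CD105 and 9.08, 8.80 and 9.08 with it. On the Thy+6C3- arrays it read 6.90, 6.70 and 6.98 without CD105 and 7.40, 7.50 and 7.25 with it. These 3 pairs of populations did not overlap. Among the 6C3+ and the Thy+ arrays the CD105+ member of each pair was also the higher without overlap, but neither difference passed the test given below. How many of all genes lay apart in this way between CD105 states was not counted. Col9a3 followed on the Thy-6C3- arrays with 13.65, 13.94 and 13.95 without CD105 and 13.45, 13.87 and 13.60 with it. On the Thy-6C3+ arrays it read 11.48, 11.16 and 11.90 without CD105 and 12.22, 11.95 and 12.42 with it. Its Thy+ arrays, at 9.87, 10.41 and 10.99 without CD105 and 10.32, 10.99 and 10.44 with it, overlapped each other and lay below all 6C3+ arrays.

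Col9a1 has 2 probe sets that gave different accounts of the 6C3+ populations. The probe set 1428571_at was used for the gene because its mean was the higher. On it, Col9a1 averaged 13.32 ± 0.10 (SD, n = 3) in Thy-6C3- cells without CD105 and 13.36 ± 0.09 in those with it. The Thy-6C3+ cells averaged 12.55 ± 0.24 without CD105 and 12.79 ± 0.12 with it, and the Thy+ cells with CD105 averaged 11.60 ± 0.26. In Thy+6C3-CD105- it read 10.89, 11.11 and 9.16, the last on replicate 3, for a mean of 10.39 ± 1.07. On 1421381_a_at that replicate was instead the highest of its population, at 10.01 beside 8.66 and 9.58. The second probe set put the 6C3+ populations at 10.58 to 10.59 in the mean, against 12.19 and 12.44 in the Thy-6C3- populations, and thus showed a wider gap. Col9a3 also has a second detected probe set, 1460693_a_at, which read 4.70 on that same Thy+6C3-CD105- replicate 3, beside 7.95 and 7.54. On 1460693_a_at the Thy+6C3-CD105+ arrays, at 8.05 to 9.06, overlapped the Thy-6C3+CD105+ arrays, at 8.81 to 9.24. The third probe set of Col9a3, 1420280_x_at, stayed between 3.19 and 4.35 on all arrays, near the bottom of the scale.

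Collagen XI differed between its chains. Col11a1 had the narrowest range of population means among the 6 genes, with population means of 13.32 ± 0.07 and 13.17 ± 0.09 in Thy-6C3- cells without and with CD105, and 12.32 ± 0.28 and 12.00 ± 0.28 in the corresponding Thy+ cells. The 6C3+ cells with CD105 averaged 12.69 ± 0.15, and those without read 12.60, 11.32 and 12.82. The low reading, on replicate 2, came with the highest reading of that population on the other probe set, 1449154_at, where the 3 arrays were at 12.59, 13.06 and 12.57. Col11a2 read 11.18, 11.11 and 12.43 on the Thy-6C3- arrays without CD105 and 10.77, 11.22 and 11.31 on those with it. It read 8.49, 9.25 and 9.71 on the Thy-6C3+ arrays without CD105 and 9.40, 9.30 and 9.49 on those with it. The Thy+6C3-CD105- arrays, at 8.97, 9.61 and 9.15, overlapped both. Thy+6C3-CD105+ was lowest, at 7.79, 8.06 and 8.22, below every other array.

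**Figure D1:**
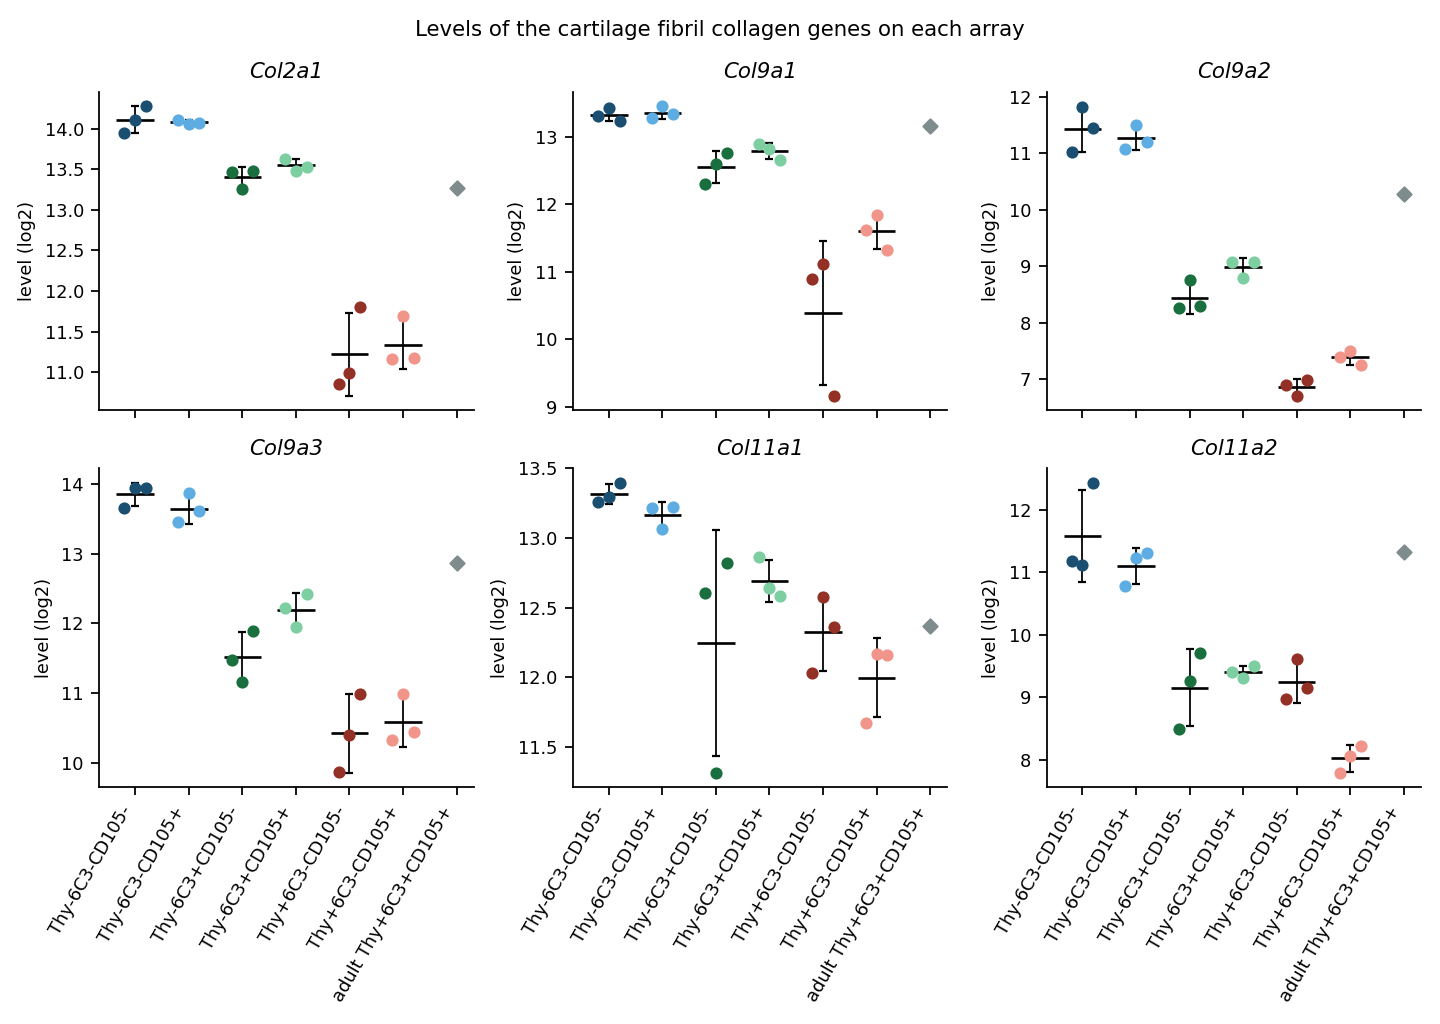
Level of each of the 6 collagen genes on every array, in 1 panel per gene (vertical axis, normalised log2 value, which does not start at 0; horizontal axis, population). Circles are arrays, bars and whiskers are the mean and SD of 3 arrays, and the diamond is the single adult array; Col2a1 lies at 13.26 or above on all Thy- arrays, at 11.81 or below on all neonatal Thy+ arrays and at 13.27 on the adult array.

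The order of the population means was therefore Thy-6C3-, then 6C3+, then Thy+ for Col2a1, Col9a1, Col9a2 and Col9a3. Within that order the Thy-6C3-CD105- and Thy-6C3-CD105+ arrays overlapped for every gene but Col11a1, whose means differed by 0.15. For Col11a1 and Col11a2 the lower end had a different order, with Thy+6C3-CD105- placed between the 6C3+ populations. Neighbours there overlapped except between Thy-6C3+CD105+ and Thy+6C3-CD105- for Col11a1 and between Thy-6C3+CD105- and Thy+6C3-CD105+ for Col11a2. With single arrays left out, Thy+6C3-CD105- minus Thy-6C3+CD105- ran from -0.39 to 0.36 for Col11a1 and from -0.24 to 0.37 for Col11a2. The lowest values came without Thy-6C3+CD105- replicate 2 and replicate 1, respectively. On the other Col11a1 probe set, 1449154_at, the difference was -0.68 ± 0.19 (SE). The place of Thy+6C3-CD105- thus depended on single arrays and, for Col11a1, on the probe set. By an F-test over the 6 populations (limma), all 6 genes differed, as 10.1% of all genes did. The adjusted p ran from 1.70e-10 for Col9a2 to 0.0101 for Col11a1.

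The first comparison asked how Thy+6C3- cells differ from Thy-6C3- cells of the same CD105 state, a contrast called the Thy step below. All 6 genes were lower in Thy+ cells in both CD105 states, where 2.63% of all genes were called lower with CD105 and 7.45% without (limma, adjusted p under 0.05 after Benjamini-Hochberg adjustment over 18193 genes). With CD105, Col9a2 fell by 3.88 ± 0.21 on the log2 scale (SE, 14.7-fold, adjusted p = 7.40e-09). Without CD105 it fell by 4.57 ± 0.21, which is 23.8-fold (adjusted p = 9.27e-10) and ranked 1 by p among all genes. Col9a3 changed by -3.06 ± 0.25 and -3.42 ± 0.25 with and without CD105 (adjusted p = 4.89e-07 and 9.30e-08). Col2a1 changed by -2.74 ± 0.20 and -2.89 ± 0.20, or 6.67-fold and 7.42-fold (adjusted p = 1.15e-07 and 3.32e-08). All 3 Thy+ arrays lay below all 3 Thy- arrays for each of the 6 genes in both states, where 11.8% and 11.7% of all genes did so with and without CD105.

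The smallest fall of the Thy step was that of Col11a1, at -1.17 ± 0.27 with CD105 (adjusted p = 0.0112) and -0.99 ± 0.27 without (adjusted p = 0.0199). Col11a2 changed by -3.07 ± 0.33 and -2.33 ± 0.33 (adjusted p = 7.15e-06 and 0.000129), and Col9a1 by -1.76 ± 0.33 and -2.93 ± 0.33 (adjusted p = 0.00204 and 1.32e-05). Without Thy+6C3-CD105- replicate 3, whose Col9a1 probe sets disagreed, the count of genes lower without CD105 was still 6. The median change of the 6 genes was -2.90 and -2.91, against -0.02 and 0.13 over all genes. In whole populations of sorted cells, fewer cells of a type and less RNA per cell cannot be told apart. For Col11a1 the call was lost on leaving out Thy+6C3-CD105+ replicate 1 in the first state, and Thy-6C3-CD105- replicate 3 or Thy+6C3-CD105- replicate 1 in the second, with adjusted p up to 0.0672 and 0.0703.

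Markers of several cell types also differed in the Thy step. The 7 chondrocyte markers apart from the collagens (Acan, Matn1, Matn3, Snorc, Hapln1, Chad and Cytl1) were all lower in both states, and their mean per array was 12.20 to 12.36 in Thy-6C3- cells, 9.33 to 9.74 in Thy+6C3-CD105+ and 8.96 to 9.61 in Thy+6C3-CD105-. Of 5 tendon markers, 3 were higher in both states, with means per array of 10.37 to 11.21 in Thy+ cells and 8.92 to 9.43 in Thy-6C3- cells. All 5 pericyte and smooth muscle markers were higher in Thy+6C3-CD105+, at 10.29 to 10.46 against 7.28 to 7.67. Without CD105 these markers were split. Kcnj8 (1.06) and Acta2 (1.29) were higher, Myh11 was lower (-0.83), and Rgs5 and Notch3 were not called. All 3 keratinocyte markers were higher in Thy+6C3-CD105-, at 7.15 to 8.44 against 5.29 to 5.55. Of 4 hypertrophic chondrocyte markers, Col10a1, Ihh and Panx3 were lower in both states (Panx3 by -5.05 and -6.02) and Mmp13 without CD105, and their mean per array was 7.20 to 8.61 in Thy-6C3- cells and 4.47 to 5.05 in Thy+ cells. Of 5 osteoblast markers, Ibsp (-4.37 and -5.11), Sp7 and Smpd3 were lower in both states and all 5 without CD105, with means per array of 7.22 to 8.61 in Thy-6C3- cells and 4.49 to 5.50 in Thy+ cells. Among 5 myeloid markers, Laptm5 and Csf1r were higher without CD105 (2.29 and 1.21), where the mean per array was 6.33 to 7.06 against 5.73 to 6.04. Among 5 endothelial markers, Sox18 was higher in both states and Esam with CD105, and among 5 skeletal muscle markers, Ckm was higher without CD105. No measured adipocyte, erythroid or glial marker was called in the Thy step. The part of these cells in the collagen differences was not tested.

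The second comparison asked how Thy-6C3+ cells differ from Thy-6C3- cells of the same CD105 state, the 6C3 step; it shares the Thy-6C3- arrays with the Thy step, so the values of both are given side by side and not correlated. Here the chains split. With CD105, 3 of the 6 genes were lower, Col9a2, Col9a3 and Col11a2, where 0.797% of all genes were called lower. Without CD105, 4 were lower, these 3 and Col11a1, where 1.50% of all genes were. Col9a2 changed by -2.28 ± 0.21 and -2.99 ± 0.21 with and without CD105 (adjusted p = 9.18e-06 and 1.47e-07), or 4.86-fold and 7.97-fold. Col9a3 changed by -1.44 ± 0.25 and -2.34 ± 0.25 (adjusted p = 0.00506 and 2.70e-05). Col11a2 changed by -1.70 ± 0.33 and -2.42 ± 0.33 (adjusted p = 0.0106 and 0.000232).

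The change of Col2a1 in the 6C3 step was -0.53 ± 0.20 with CD105 and -0.71 ± 0.20 without, neither of which passed the threshold (adjusted p = 0.360 and 0.0657). Its unadjusted p was 0.0151 and 0.00214, and the 6C3+ arrays lay below the Thy-6C3- arrays without overlap in either state, as those of 6.96% and 6.61% of all genes did. Col9a1 changed by -0.56 ± 0.33 and -0.77 ± 0.33 on the probe set used for the gene (adjusted p = 0.848 and 0.294). On its other probe set, 1421381_a_at, the change was -1.61 ± 0.33 and -1.85 ± 0.33 and passed in both states when all probe sets were fitted (adjusted p = 0.0309 and 0.00505). Without Thy+6C3-CD105- replicate 3, which is in neither population, the CD105- value of -0.77 on the first probe set passed (adjusted p = 0.00390). Whether Col9a1 was called in 6C3+ cells thus depended on the probe set and on that array. Col11a1 changed by -0.47 ± 0.27 with CD105 (adjusted p = 0.834) and by -1.07 ± 0.27 without (adjusted p = 0.0414).

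The Col11a1 call in the CD105- state was weak. Its other probe set, 1449154_at, changed by -0.21 ± 0.19 (adjusted p = 0.674 over all probe sets). The call was lost without any one of 12 of the 18 arrays: all 6 Thy-6C3- arrays, all 3 Thy-6C3+CD105+ arrays, replicates 2 and 3 of Thy+6C3-CD105+, and Thy-6C3+CD105- replicate 2, without which the change was -0.60. For Col11a2 with CD105 it was lost without Thy-6C3-CD105+ replicate 3 or Thy-6C3+CD105+ replicate 2 (adjusted p up to 0.0713). Among the chondrocyte markers, the mean per array was at most 10.46 in Thy-6C3+CD105+ and 9.69 to 9.91 in Thy-6C3+CD105-. These markers did not change alike. Matn1 (-5.95 and -7.17) and Matn3 (-3.72 and -3.92) were lower in both states, Acan was lower only without CD105, and Hapln1 and Chad were called in neither. In both states 3 of 4 hypertrophic chondrocyte markers were lower, and so were 2 of 5 osteoblast markers, Sp7 and Smpd3. Of 5 tendon markers, Thbs4 was higher in both states (1.32 and 1.76) and Kera without CD105 (1.09).

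**Figure D2:**
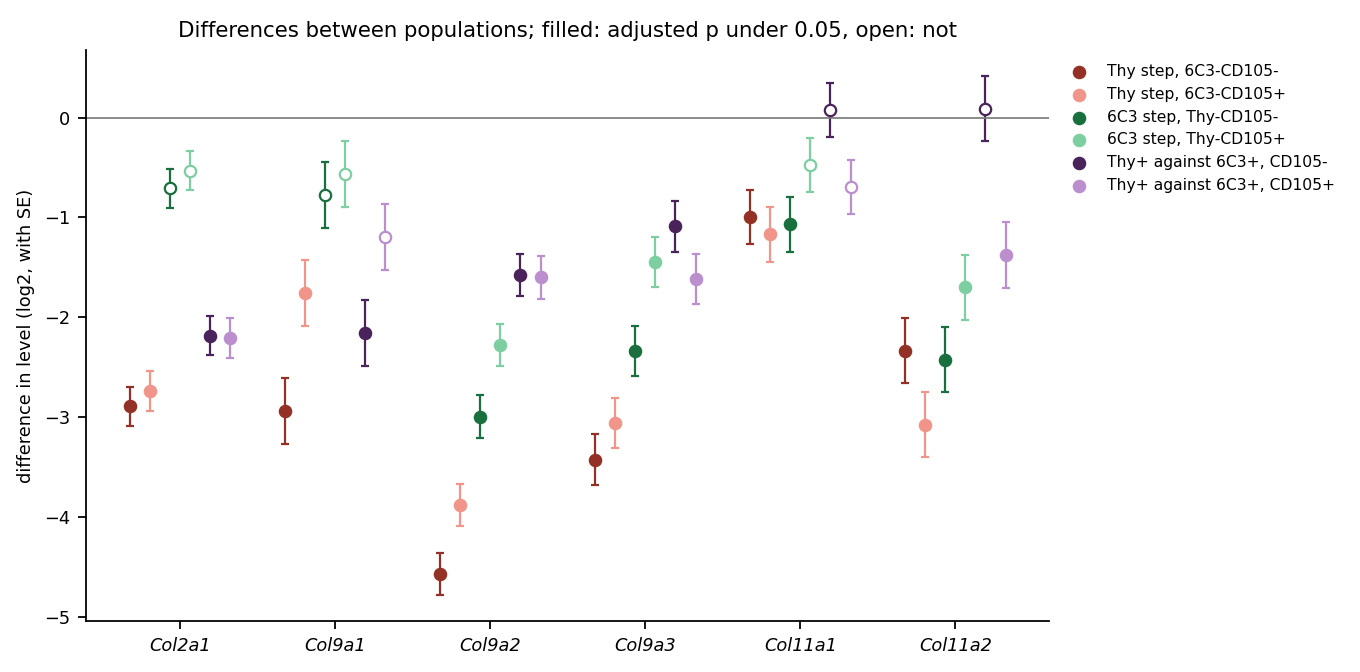
Difference in level between populations for each collagen gene (vertical axis, log2; bars, SE), for the Thy step, the 6C3 step and Thy+ against 6C3+ cells in each CD105 state. Filled points passed an adjusted p of 0.05 and open points did not; Col9a2 has the lowest value of the plot, -4.57, and Col2a1 is filled in 4 of its 6 comparisons.

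Compared directly on the probe sets used, Thy+6C3- cells had lower levels than Thy-6C3+ cells for 4 of the 6 genes in each CD105 state. Col2a1, Col9a2 and Col9a3 were lower in both. With CD105, where 0.879% of all genes were called lower, these were Col2a1 (-2.21 ± 0.20, adjusted p = 2.63e-06), Col9a2 (-1.60 ± 0.21, adjusted p = 0.000139), Col9a3 (-1.62 ± 0.25, adjusted p = 0.000814) and Col11a2 (-1.38 ± 0.33, adjusted p = 0.0271). Without CD105, where 1.32% were, they were Col2a1 (-2.18 ± 0.20, adjusted p = 6.83e-06), Col9a1 (-2.16 ± 0.33, adjusted p = 0.00110), Col9a2 (-1.58 ± 0.21, adjusted p = 0.000315) and Col9a3 (-1.09 ± 0.25, adjusted p = 0.0286). The Col9a3 call with CD105 depended on the probe set. On 1460693_a_at the Col9a3 change was -0.51 ± 0.56 with CD105 and did not pass. Without CD105 it was -2.42 ± 0.56 and passed (adjusted p = 0.0478 by limma over all probe sets). The Col9a1 call depended on the probe set and on single arrays. On 1421381_a_at the change was -1.75 ± 0.33 with CD105 and passed (adjusted p = 0.00705 over all probe sets), and -1.17 ± 0.33 without CD105 and did not (adjusted p = 0.112). On the probe set used, the value without CD105 was -1.55 when Thy+6C3-CD105- replicate 3 was left out (adjusted p = 6.01e-05). The value with CD105, -1.19 ± 0.33, passed without that array or without Thy+6C3-CD105- replicate 2 (adjusted p = 5.93e-05 and 0.0344). In the CD105- comparison, the probe sets used gave values near 0 for collagen XI, 0.08 ± 0.27 for Col11a1 and 0.09 ± 0.33 for Col11a2. The arrays overlapped, and both signs turned when the values were used as deposited (-0.19 and -0.25). Leaving out single arrays gave -0.39 to 0.36 for Col11a1, the lowest without Thy-6C3+CD105- replicate 2, and -0.24 to 0.37 for Col11a2. On 1449154_at the Col11a1 value was -0.68 ± 0.19 and did not pass (adjusted p = 0.102 by limma over all probe sets). The Col11a2 call with CD105 was lost without any one of the 6 arrays compared (adjusted p up to 0.131), and the Col9a3 call without CD105 was lost without Thy+6C3-CD105- replicate 1 or Thy-6C3+CD105- replicate 1 or 3 (adjusted p up to 0.0809). When only the 6 arrays compared entered the fit, or when the Thy-6C3+CD105- arrays were grouped by their titles, 1 gene, Col2a1, was called without CD105.

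CD105 made no called difference to any of the 6 genes. In Thy-6C3- cells, where 0.00550% of all genes were called, the differences of CD105+ from CD105- cells lay between -0.47 and 0.03, and 0 of the 6 and 318 of all genes had an unadjusted p under 0.05 (limma). In Thy-6C3+ cells 0 of all genes were called by limma, 498 of them with an unadjusted p under 0.05, and the 6 values lay between 0.14 and 0.69; Col9a2 and Col9a3, at 0.55 ± 0.21 and 0.69 ± 0.25, were the 2 with an unadjusted p under 0.05 (0.0191 and 0.0147). In Thy+6C3- cells, where 1.02% of all genes were called, 3 of the 6 and 4072 of all 18193 genes had an unadjusted p under 0.05, and none of the 6 passed the adjusted threshold. Col9a1 was at 1.21 ± 0.33 (adjusted p = 0.0868), Col9a2 at 0.52 ± 0.21 (adjusted p = 0.172) and Col11a2 at -1.22 ± 0.33 (adjusted p = 0.0830). The Col9a1 value rested on Thy+6C3-CD105- replicate 3: without that array it was 0.59, and on the other probe set, 1421381_a_at, it was -0.58 ± 0.33. The count was 1 to 2 without Thy-6C3-CD105- replicate 3, Thy+6C3-CD105- replicate 1 or Thy+6C3-CD105- replicate 2, and Col11a2 was among those called without either of the first 2.

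The size of the Thy and 6C3 steps did not pass a test of difference between CD105 states for any of the 6 genes. In the test of the Thy step by CD105, where 0.269% of all genes were called and 3033 of 18193 had an unadjusted p under 0.05, 2 of the 6 did so: Col9a1 at 1.18 ± 0.47 (adjusted p = 0.248) and Col9a2 at 0.69 ± 0.30 (adjusted p = 0.273). The Col9a1 value was 0.56 without Thy+6C3-CD105- replicate 3, and on 1421381_a_at it was -0.34 ± 0.46. In that of the 6C3 step by CD105, where 0 of all genes were called and 543 had an unadjusted p under 0.05, all 6 values were positive on the probe sets used, from 0.18 for Col2a1 to 0.89 ± 0.36 for Col9a3 (adjusted p = 0.999), and 2 had an unadjusted p under 0.05, Col9a2 and Col9a3. On the other probe sets the value was -0.37 ± 0.26 for Col11a1 (1449154_at) and -0.0013 ± 0.80 for Col9a3 (1460693_a_at).

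A protein trimer needs its chains together, and the changes of the 6 genes were therefore set against each other. For each of the 15 pairs of genes, the difference of their log2 values on an array was compared between populations by an exact permutation test that reassigned arrays within a CD105 state (two-sided, 400 reassignments, smallest possible p 0.005), with adjustment over 45 tests. The test was run on pairs of these 6 genes only, so how common unequal change is among pairs of other genes was not tested. From Thy-6C3- to Thy+ cells, 10 of 15 pairs changed unequally. Col11a1 was in 5 of these, having fallen less than each of the other 5 genes. Its change was -1.08 in the mean of both CD105 states, against -2.70 for Col11a2, a difference of 1.62 (adjusted p = 0.00978 by the exact test), and against -4.23 for Col9a2, where Col9a2 minus Col11a1 was -3.15.

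From Thy-6C3- to 6C3+ cells, 10 of 15 pairs also changed unequally, and the genes fell into 2 sets. Col2a1, Col9a1 and Col11a1 changed by -0.62, -0.67 and -0.77, and no pair among these 3 was called. The Thy-6C3- values of Col2a1 lay close to the brightest probe set, as given above. Its change and its pair differences here thus rest on levels near the upper end of the scale. In the same cells Col9a3 lay 0.47 to 0.96 below the brightest probe set, Col9a1 0.96 to 1.17 and Col11a1 1.02 to 1.35. Col9a2 lay 2.59 to 3.39 below it and Col11a2 1.99 to 3.64. The effect of these levels on the pair differences was not tested. Col9a2, Col9a3 and Col11a2 changed by -2.64, -1.89 and -2.06, and 8 of the 9 pairs across the sets had an adjusted p of 0.00978, while that of Col11a1 and Col11a2 was 0.0241 (exact permutation). Within the second set Col9a2 fell more than Col9a3, by 0.75 (adjusted p = 0.0241). On the other detected probe sets of Col9a1, Col9a3 and Col11a1, an alternative added after their disagreement was seen, Col9a1 no longer belonged with Col2a1. There its change was lower than that of Col2a1 by 1.11, and its change minus that of Col11a1 was -1.33, with an adjusted p of 0.00978 for both, and the difference between Col11a1 and Col11a2 was 1.66.

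**Figure D3:**
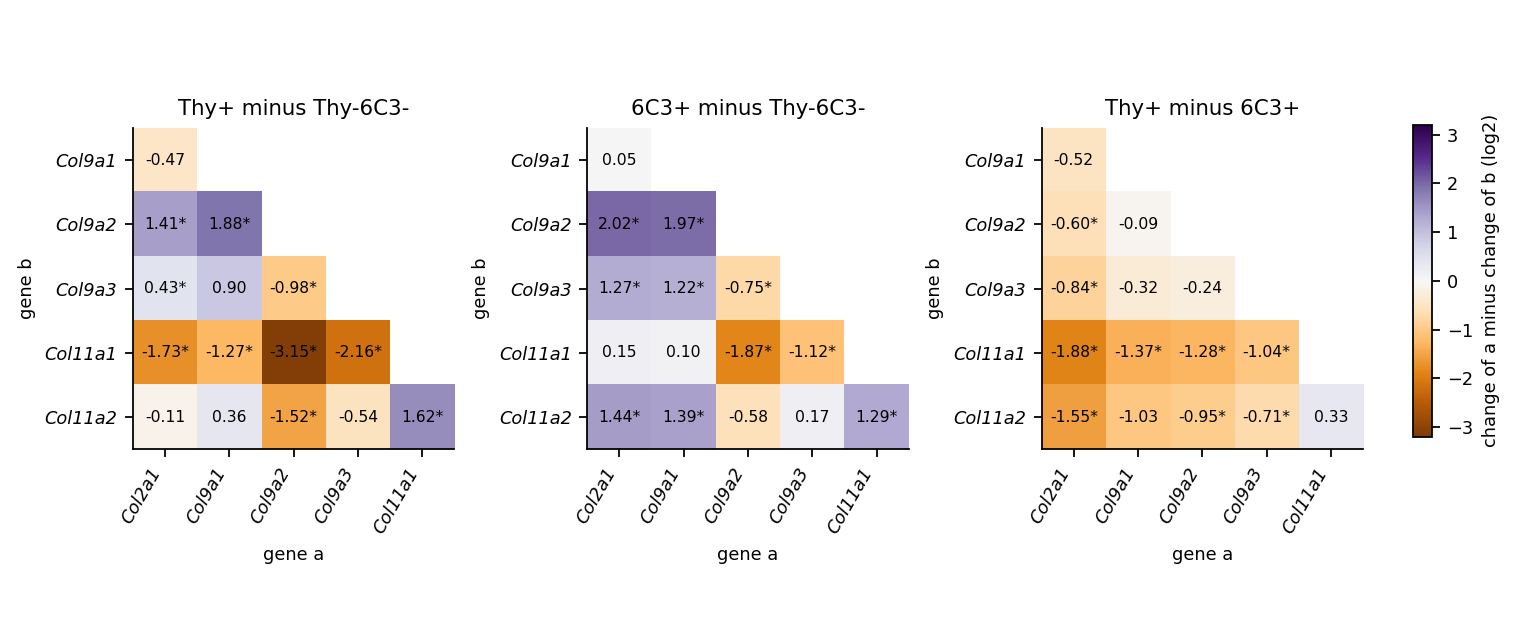
Difference between the log2 changes of 2 collagen genes (number and colour, change of the gene in the column minus change of the gene in the row), in 1 panel for each comparison of populations over both CD105 states. Asterisks mark an adjusted p under 0.05 in the exact permutation test; the Col11a1 row or column carries the largest value, -3.15 against Col9a2 from Thy-6C3- to Thy+ cells.

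From 6C3+ to Thy+ cells, 9 of 15 pairs changed unequally. Col2a1 changed most, by -2.19, and Col11a1 least, by -0.31. For the pair Col2a1 and Col9a2 the sign of the difference turned between comparisons that share the 6C3+ arrays. The change of Col2a1 minus that of Col9a2 was 2.02 from Thy-6C3- to 6C3+ cells and -0.60 from 6C3+ to Thy+ cells (adjusted p = 0.00978 and 0.0241 by the exact test), the first of them measured from Col2a1 levels near the upper end of the scale. On each array, the Col2a1 value exceeded that of Col9a2 by 2.29 to 3.03 in Thy-6C3- cells, by 4.46 to 5.21 in 6C3+ cells and by 3.76 to 4.83 in Thy+ cells, values that are comparable between arrays but not between the genes. The difference in change between the chains of collagen XI did not pass here (0.33, adjusted p = 0.437 by the exact test).

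**Figure D4:**
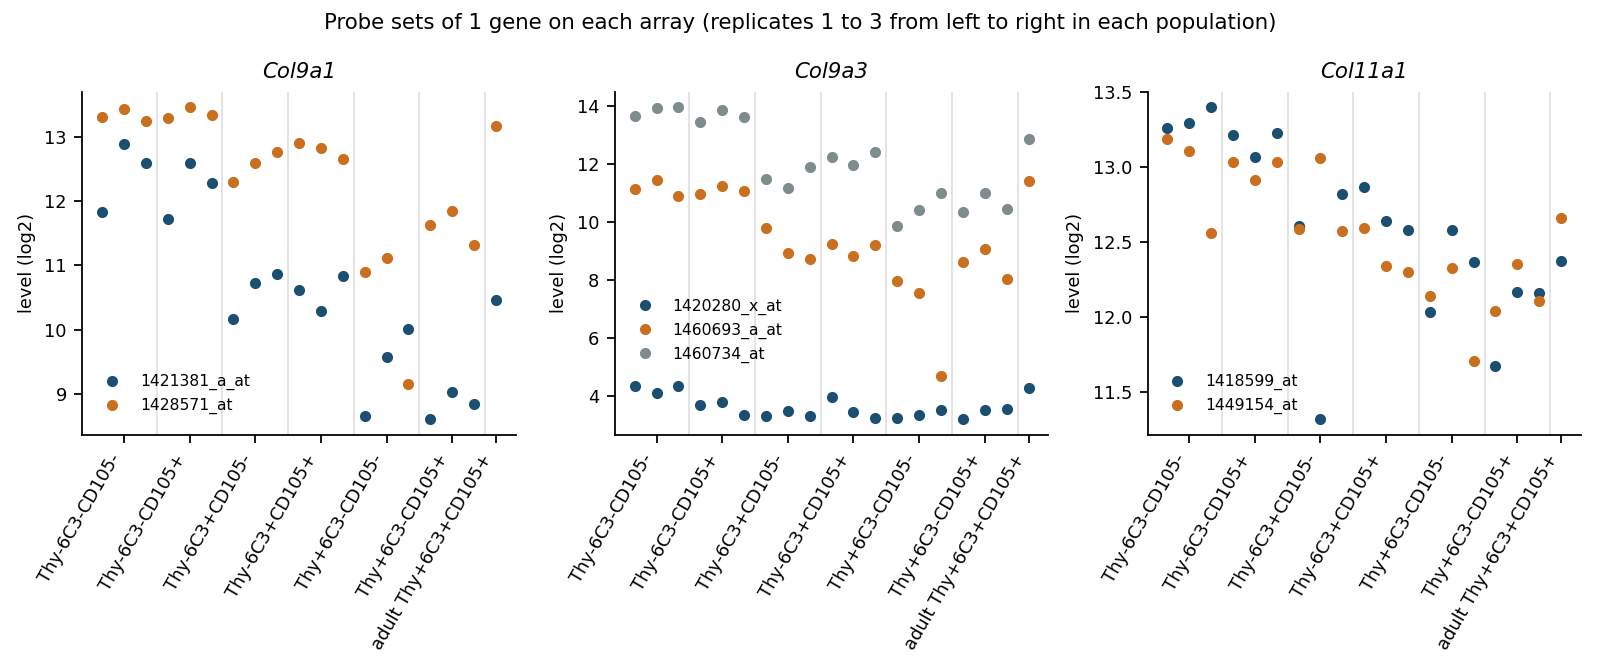
Level on every array (vertical axis, log2; horizontal axis, arrays in order of population and replicate) of each probe set of the 3 collagen genes that have more than 1. The Col9a1 probe sets are 9.16 and 10.01 on Thy+6C3-CD105- replicate 3, and those of Col11a1 are 11.32 and 13.06 on Thy-6C3+CD105- replicate 2.

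Promoter windows from RefSeq (GRCm38.p6, 300 bases around an annotated start) were found for 4 of the 6 genes, Col9a1, Col9a2, Col11a1 and Col11a2, with a second start for Col9a1. The stretches before the first annotated base of Col9a2, which changed most in the Thy step, and of Col11a1, which changed least, are shown so that their letters can be read beside those changes. Both are on the + strand and are written 5′ to 3′ with the GC box GGGCGG, in either orientation, in capitals; Col9a2 is at chr4:121039316-121039565 and Col11a1 at chr3:114030290-114030478.
Col9a2: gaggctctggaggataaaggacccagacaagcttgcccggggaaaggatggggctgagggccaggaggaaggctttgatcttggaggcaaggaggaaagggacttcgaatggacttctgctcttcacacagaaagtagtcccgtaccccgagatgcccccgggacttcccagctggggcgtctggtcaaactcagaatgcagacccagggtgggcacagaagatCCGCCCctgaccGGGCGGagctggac
Col11a1: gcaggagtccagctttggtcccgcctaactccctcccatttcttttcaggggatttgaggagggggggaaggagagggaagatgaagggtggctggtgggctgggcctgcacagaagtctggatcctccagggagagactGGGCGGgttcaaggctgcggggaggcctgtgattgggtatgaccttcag

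The whole windows held 3 GC boxes for Col9a2, 2 for Col11a1 and 2 for Col11a2, and none for either start of Col9a1, where 35.7% of all 32851 promoter windows held at least 1. The letters ACAAAG and ACAATG, cores recognised by Sox proteins, were in 18.7% and 12.6% of all windows on either strand and in none of those of the 4 genes. The letters TATAAA were in 13.6% of all windows and, among these genes, in that of Col11a2 once. No search was made outside these windows.

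Other genes of collagen synthesis and cartilage were read from lists; over all genes, 4.03% and 10.5% were called higher in the Thy step with and without CD105, and 0.561% and 1.24% in the 6C3 step. The Sox trio was lower in Thy+ cells. Of 13 genes listed as the Sox trio and its partners, 6 were lower in Thy+ cells in each CD105 state, and 1 was higher with CD105 and 2 without. Sox9, the master regulator of chondrocytes, changed by -2.75 ± 0.44 and -2.82 ± 0.44 with and without CD105 (adjusted p = 0.000469 and 0.000356). Sox5 and Sox6, its partners at cartilage enhancers, fell too (-2.35 and -2.49, and -2.44 and -2.74). Wwp2, a ubiquitin ligase that hosts a cartilage microRNA, fell as well (-2.06 and -2.45). In the 6C3 step, the changes of Sox9 were -1.49 ± 0.44 and -1.61 ± 0.44 and did not pass (adjusted p = 0.143 and 0.060), nor did those of Sox5 (-0.50 and -0.61) and Sox6 (-0.98 and -0.93). Wwp2 (-0.79 and -0.88) and Snai2, a repressor of the Snail family (-0.81 and -1.09), passed in both states, and Cebpb in the CD105- state. Creb3l1, a membrane-bound factor known from collagen I synthesis in bone, was higher in all 4 comparisons, by 0.87 to 1.29, and Arid5b, a partner of Sox9, in the Thy step without CD105 (0.85). Zfp219, Nkx3-2, Barx2, Trps1 and Snai1 were not called in either state of the Thy step.

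Among 16 genes for hydroxylation, glycosylation and folding of collagen chains, 4 fell and 1 rose in the Thy step with CD105, and 6 fell without. In the 6C3 step, 1 fell in each state. That gene was Colgalt2, which encodes a glycosyltransferase for hydroxylysine: its change was -2.67 and -3.49 in the Thy step and -1.99 and -2.86 in the 6C3 step (adjusted p at most 1.58e-05). P4ha2, a prolyl hydroxylase subunit (-1.18 without CD105), P3h2, a prolyl 3-hydroxylase (-1.42 and -2.01), and Plod2, a lysyl hydroxylase (-0.93 and -1.02), fell in both states of the Thy step, and P4ha3 rose by 1.65 with CD105. P3h1 (-0.91) and P3h4 (-0.88) were the further genes lower without CD105. The general chaperones Serpinh1, P4hb and Ppib were not called in any of the 4 comparisons. Of 7 secretion genes, only Creb3l2, which controls secretory genes in chondrocytes, was called, and it fell in both states of the Thy step (-1.04 and -1.09).

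Among 10 genes for procollagen processing and cross-linking, calls ran both ways, with 3 higher and 3 lower in the Thy step with CD105, and 4 and 4 without. Pcolce, an enhancer of procollagen C-proteinase, rose in all 4 comparisons, by 0.54 to 0.85, while Pcolce2 fell in all 4, with changes of -0.97 to -1.08. Of the lysyl oxidases, which start the cross-links of fibrils, Lox (1.38 and 1.20) and Loxl1 (1.10 and 0.78) rose in the Thy step and Loxl3 (-1.63 and -1.47) and Loxl4 (-1.27 and -2.37) fell. Loxl4 also fell in the 6C3 step (-1.64 and -2.55). Bmp1, the C-proteinase itself (1.10), rose and Adamts3, an N-proteinase of procollagen II (-1.30), fell in the Thy step without CD105. Of 6 collagen receptor genes, Itga10, the integrin subunit of chondrocytes for collagen II, fell in both states of the Thy step (-2.22 and -2.40), and Itga2 rose without CD105 (0.76).

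Other fibril collagens did not share the fall as a group. Of 8 other fibrillar chains, Col27a1, a cartilage fibrillar collagen, fell in both states of the Thy step (-1.61 and -1.73) and in the 6C3 step without CD105 (-1.42, adjusted p = 0.00551). Col1a1 (1.24) and Col5a3 (1.79) rose in the Thy step with CD105 and Col24a1 fell without (-1.73), and Col1a2, Col3a1, Col5a1 and Col5a2 were not called in any Thy or 6C3 step. Of 6 other fibril-associated collagens, Col14a1 rose in all 4 comparisons, by 0.75 to 0.99, and Col20a1 in the Thy step without CD105 (0.87). Col22a1, a collagen of tissue junctions, fell in the Thy step (-2.08 and -2.46) and rose in the 6C3 step without CD105 (1.32, adjusted p = 0.0219).

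Of 12 proteins that sit on or beside cartilage fibrils, 8 were lower in Thy+ cells in each state, and 3 and 4 in 6C3+ cells with and without CD105. Matn1 and Matn3, matrilins that bridge fibrils, and Epyc, a small proteoglycan, were in all 4 counts. Matn1 changed by -3.46 and -5.50 in the Thy step and by -5.95 and -7.17 in the 6C3 step, its mean in CD105- cells being 11.62 without 6C3 and 4.46 with it. Epyc changed by -3.81 and -3.16 and by -5.62 and -5.35. Comp and Chad, which bind collagen II, fell in the Thy step (-1.06 and -1.01, and -1.71 and -1.43), and their changes in the 6C3 step did not pass (-0.02 and -0.18, and -0.26 and -0.30). Hapln1, the link protein, fell in the Thy step (-2.01 and -1.82), and Acan, the main proteoglycan of cartilage, fell there (-0.92 and -1.16) and in the 6C3 step without CD105 (-0.98). Matn4 fell in the Thy step with CD105 (-1.50) and Prelp without (-1.03), where Dcn rose (0.94). Of 6 collagen-degrading enzymes, Ctsk rose in both states of the 6C3 step (1.02 and 1.03) and in the Thy step without CD105 (0.65), Mmp9 rose in the 6C3 step with CD105 (1.16), and Mmp13, the main collagenase for collagen II, fell in the Thy step without CD105 (-3.43). Mmp2 (0.41, without CD105) and Mmp14 (0.71, with CD105) rose in the Thy step.

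**Figure D5:**
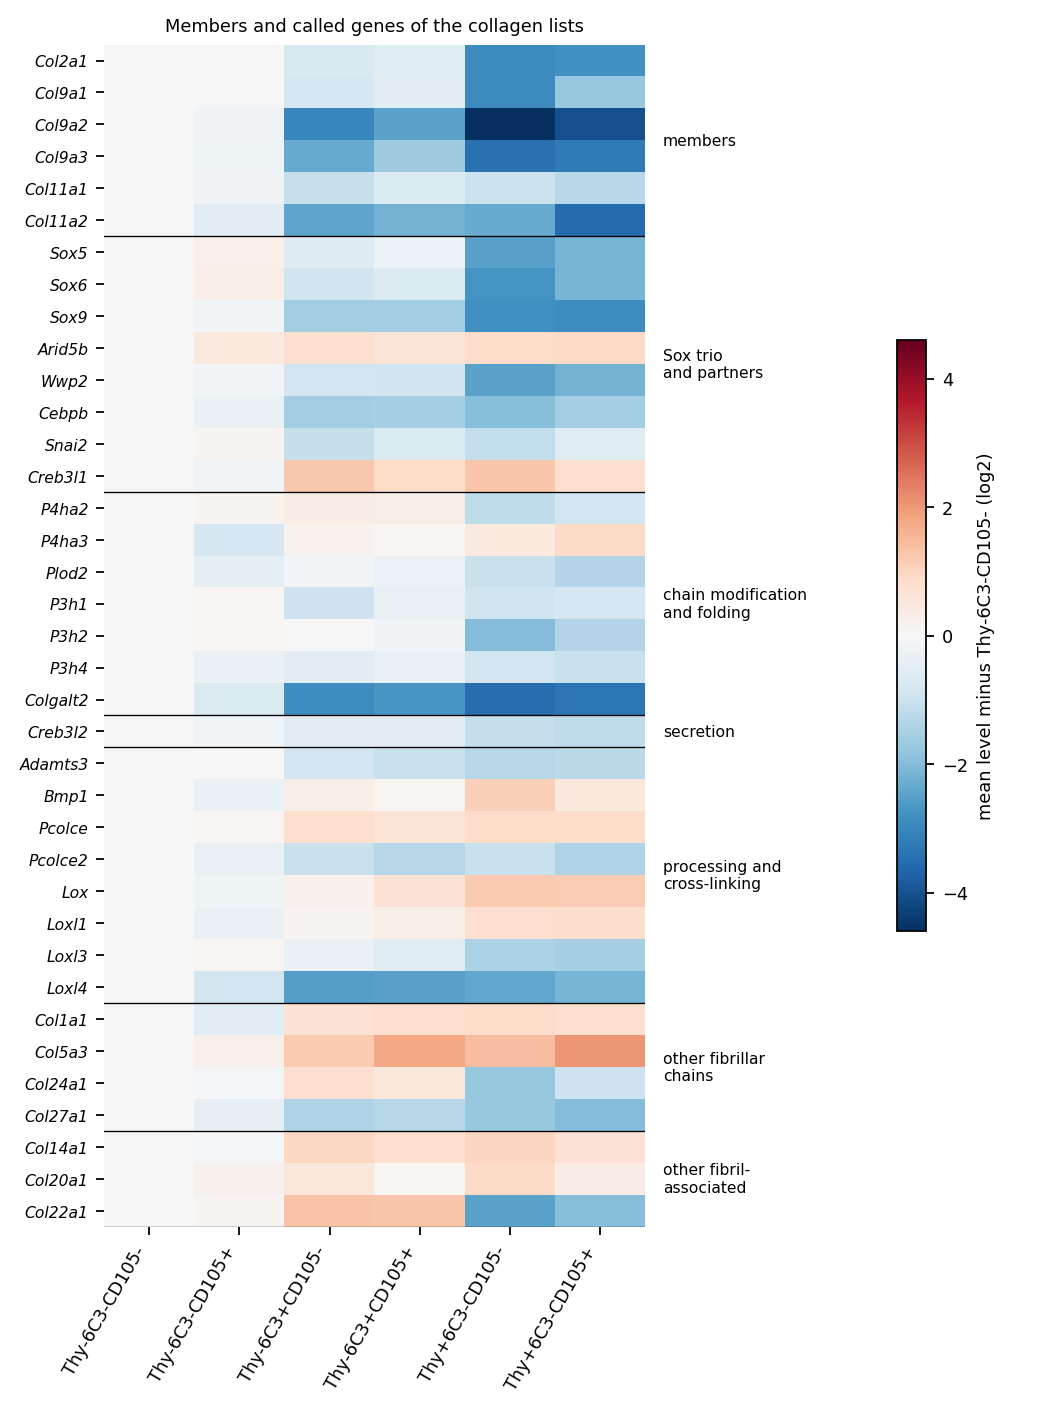
Mean level minus the mean of Thy-6C3-CD105- (colour, log2) in the 6 neonatal populations (columns), for the 6 collagen genes and for every gene of 6 collagen-related lists that was called in a Thy or 6C3 step (rows). Sox9, Sox5 and Sox6 are lowest in Thy+ cells, Colgalt2 and Loxl4 are low in both Thy+ and 6C3+ cells, and Col22a1 is low in Thy+ and high in 6C3+ cells.

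The genes whose profile over the 18 neonatal arrays was most like the mean of the 6 collagen genes were Smpd3 (Pearson r = 0.969), Tfrc (0.968), Trpv4 (0.965), Meltf (0.963), Wwp2 (0.962), Chst11 (0.960), Fbln7 (0.958), Mgp (0.958), Fam89a (0.956) and Papss2 (0.955). These correlations are descriptions over arrays that fall into the same 6 populations and share one normalization. For single genes, the nearest profile outside the 6 was Chad for Col2a1 (0.978), Etv5 for Col9a1 (0.979), Dnajb1 for Col9a2 (0.987), Meltf for Col9a3 (0.967), 4930523C07Rik for Col11a1 (0.944) and Sec22b for Col11a2 (0.956). The next were Rab11fip4 and Carmil1 for Col2a1, Edil3 and Fndc3b for Col9a1, Fbln7 and Meltf for Col9a2, Trpv4 and Notum for Col9a3, P3h1 and Itpr3 for Col11a1, and Ppp1r1b and Rflna for Col11a2.

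On the adult array, for which there is no replicate, Col2a1 was at 13.27, Col9a1 at 13.16, Col9a2 at 10.28, Col9a3 at 12.86, Col11a1 at 12.37 and Col11a2 at 11.33. Col9a2 and Col9a3 lay between the neonatal 6C3+ and Thy-6C3- arrays, above every array of the first and below every array of the second. Col11a2 lay within the range of Thy-6C3- arrays, and Col2a1 within that of Thy-6C3+CD105- arrays. Thus, although its title names Thy and 6C3, no collagen gene except Col11a1 was within the range of the neonatal Thy+ arrays. The difference in age, sorted population and tissue cannot be told apart.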

How the data were processed

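Sorted cells of 6 neonatal limb populations and 1 adult sample were profiled on Affymetrix Mouse 430 2.0 arrays. The deposited table holds log2 values per probe set, per the values themselves; per the labels' protocols the arrays were scanned with GCOS software, and the method of summarising probes and the background correction are not given in the sources used here. Array medians differed (5.60 to 6.02), so the values were quantile-normalised over 19 arrays. Probe sets with 1 gene symbol in GEO's platform annotation (34945 of 45101, beside 932 with several symbols, 9160 with none and 64 controls) gave 18193 genes, each read on its probe set with the highest mean.

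One mean per population was fitted to the 18 neonatal arrays with limma 3.58.1 in R 4.3.3 (trended empirical Bayes, 12 residual degrees of freedom), with Benjamini-Hochberg adjustment over all genes and a threshold of 0.05. Differences are the first population minus the second. The script was tested on simulated data. Precision is limited by how many arrays there are. The rule for named genes took the 6 collagen genes, up to 4 called genes per list and comparison (6 in lists of 10 or more) by size of change, the 10 genes most like the mean of the 6 by Pearson's r over 18 arrays, and the 3 most like each; other genes were named as examples of uncalled values. The members, lists and tests were chosen with earlier results of these data known. Alternatives changed the normalization, probe set, low-level filter, trend, array weights, replicate block, grouping by title, arrays in the fit and each array in turn.

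Spike-in (poly-A) control levels split the neonatal arrays into 11 high and 7 low at 6.20. Within the sets, with 1 or 2 arrays a population, Col9a2 changed by -4.18 and -4.74 in the Thy step without CD105. The direction of the Thy and 6C3 steps within a set was fixed, since the arrays compared do not overlap for any of the 6 genes.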

Additional observations from a re-analysis of the deposited data

How the results depend on the processing

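The count of called collagen genes in the Thy steps was 5 or 6 in every alternative run, and the 6C3 step without CD105 gave 3 to 6. The 6C3 step with CD105 gave 5 when only the compared populations were fitted. For CD105 in Thy+6C3- cells, where 0 were called, values as deposited gave 1, the common median alone 1, array weights 3 and the replicate block 1, and leaving out single arrays gave 0 to 2. For Thy+ against 6C3+ cells without CD105, grouping by title and fitting the compared populations only each gave 1 in place of 4. Same-numbered arrays had a mean correlation of deviations of 0.0126, against -0.0052 for arrays of different numbers. Of 45 same-numbered pairs, 19 had a correlation above 0.1, and the values ran from -0.564 to 0.670. For 8 of 18 arrays the highest correlation was with an array of the same number. Whether replicate numbers pair the arrays is thus not settled. With the replicate block, the chain-pair test called 0, 0 and 0 pairs, where its smallest possible p is 0.0312. Beside these and the CD105 count above, the block moved no count by more than 1.5 times. Under other settings the sign of some uncalled changes turned. For Col11a1 these were CD105 in Thy+6C3- cells under the common median (0.13) and, in Thy+ against 6C3+ cells without CD105, values as deposited (-0.19), the common median (-0.16), the mean of probe sets (-0.30) and grouping by title (-0.28). The Col11a2 value of the same comparison turned as deposited (-0.25) and under the common median (-0.22). For CD105 in Thy-6C3- cells, Col2a1 turned under array weights (0.013) and Col9a1 under the common median (-0.017) and the mean of probe sets (-0.11). The Thy by CD105 interaction of Col11a1 turned as deposited (0.15) and under the common median (0.33). Leaving out single arrays turned the CD105 difference in 6C3+ cells for Col11a1 (-0.019 to 0.73) and Col11a2 (-0.082 to 0.53), and Thy+ against 6C3+ cells without CD105 for Col11a1 (-0.39 to 0.36) and Col11a2 (-0.24 to 0.37). It also turned CD105 in Thy-6C3- cells for Col2a1 (-0.12 to 0.048), Col9a1 (-0.015 to 0.086) and Col9a2 (-0.37 to 0.029), and in Thy+6C3- cells for Col2a1 (-0.061 to 0.41) and Col9a3 (-0.12 to 0.45), and the Thy by CD105 interaction of Col2a1 (-0.027 to 0.45). Of 1914 recomputed gene values, 1821 had the same direction and side of the threshold, 37 lost a call, 28 gained one and 28 turned sign. The causes were not tested.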

Other observations

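The adult array also differed in its other markers, as values without a replicate. Its mean over 7 chondrocyte markers was 11.54, between the neonatal 6C3+ arrays (at most 10.46) and the Thy-6C3- arrays (at least 12.20). Its tendon mean, over 5 markers, was 5.61, below every neonatal array (at least 8.92), and its mean over pericyte and smooth muscle markers was 6.54, where neonatal arrays read at least 7.28. Its adipocyte mean was 7.62, above every neonatal array (at most 6.09).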
